A study of Chromochloris zofingiensis with 12 samples.

Results

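The response of the unicellular green alga *Chromochloris zofingiensis* to high light was measured with 10 mM nitrate in the medium supplied. The transcriptomes of HL 10 mM and LL 10 mM cultures were compared. The comparison takes 6 of the 12 RNA-seq libraries of the study, 3 of HL 10 mM and 3 of LL 10 mM. It takes 14916 of the 15274 genes listed, after leaving out 358 genes at 0 in every library. Both groups were wild-type cells in continuous culture in photobioreactors at 25 °C, at a dilution rate of 0.5 per day and in the same medium with 10 mM nitrate. They differed in the maximum irradiance on the reactor surface. This was 300 µE per square metre per second in LL 10 mM and 1000 µE in HL 10 mM. Biomass and the nitrate left in the cultures are not given for these libraries. The nitrate available per cell may therefore have differed between the groups as well. The remaining 6 libraries came from the same pair of irradiances at 1 mM nitrate (LL 1 mM and HL 1 mM) and give a light effect to set beside that at 10 mM. They also entered the normalization and the shared estimate of the spread, so they bear on the values at 10 mM. Sampling was at 4 h of the light period. Sampling covered 3 consecutive days and was in triplicate, and how the 3 libraries of a group relate to these days or to reactors is not given in the sources used here. The p-values therefore cover the spread among these libraries alone, and it may be technical.

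Carotenoids are coloured isoprenoids that absorb light and protect the photosynthetic apparatus. Phytoene, the first carotenoid of the pathway, is desaturated and isomerized to lycopene. Lycopene is then cyclized along an α-branch that leads to lutein or a β-branch that leads to zeaxanthin, and from there to violaxanthin and neoxanthin. *C. zofingiensis* also makes astaxanthin, a ketocarotenoid that several green algae accumulate under stress, and strong light is one of the conditions known to change the carotenoid make-up of algae. Light that exceeds what photosynthesis can use is also known to set off the xanthophyll cycle, in which violaxanthin is converted back to zeaxanthin.

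Values are FPKM (fragments per kilobase of transcript, scaled by the fragments mapped in each library), and the unit was inferred from the values. The file gives no read counts, so the depth behind each value is unknown. The sum over genes was 1077380 to 1126290 in the 6 libraries and the median 12.6 to 14.7 FPKM. Between 654 and 783 genes were at 0 in the LL 10 mM libraries, against 1043, 859 and 698 in HL 10 mM replicates 1, 2 and 3. Pearson's r across genes was taken on log2(FPKM + 1) after quantile normalization over the 12 libraries. It was 0.987 to 0.991 within LL 10 mM, 0.988 to 0.993 within HL 10 mM and 0.9751 to 0.987 between the groups. Normalized FPKM below are values after quantile normalization over the 12 libraries, and each fold change was taken as a difference of log2(FPKM + 1), so that changes of genes with low values come out too small. The median log2 difference of all genes between HL 10 mM and LL 10 mM was 0.02, with 95% of genes between −0.73 and 0.57.

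Most genes that responded to high light changed little. The thresholds for activated and repressed genes were a limma adjusted p (Benjamini-Hochberg) under 0.05 together with a 2-fold change, and 238 genes passed them, 1.6% of those tested. Of these, 70 were activated (0.469%) and 168 were repressed (1.13%), so that 70.6% of the called genes were lower in HL 10 mM. The excess of repressed genes came with the fold threshold. At the adjusted p alone the directions were near balance, with 866 genes higher (5.81%) and 846 lower (5.67%), 11.5% of genes together. Among the higher genes 8.08% reached 2-fold, and among the lower genes 19.9% did. With a pseudocount of 0.1, which raises the fold changes of genes with low values, 138 genes were activated and 259 repressed.

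The 70 activated genes had a median fold change of 2.43, and 50 of them rose by less than 3-fold. A rise of 4-fold or more was seen in 10 genes and of 8-fold or more in 1. The 168 repressed genes had a median fold of 2.33, and 130 fell by less than 3-fold. In this group 16 genes fell by 4-fold or more and 5 by 8-fold or more. For all 238 called genes the 3 HL 10 mM libraries lay on one side of the 3 LL 10 mM libraries. The choice of these genes by adjusted p and fold change in the same libraries favours this. Over all genes tested, 17.3% lay above and 13.2% below in every library.

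**Figure D1:**
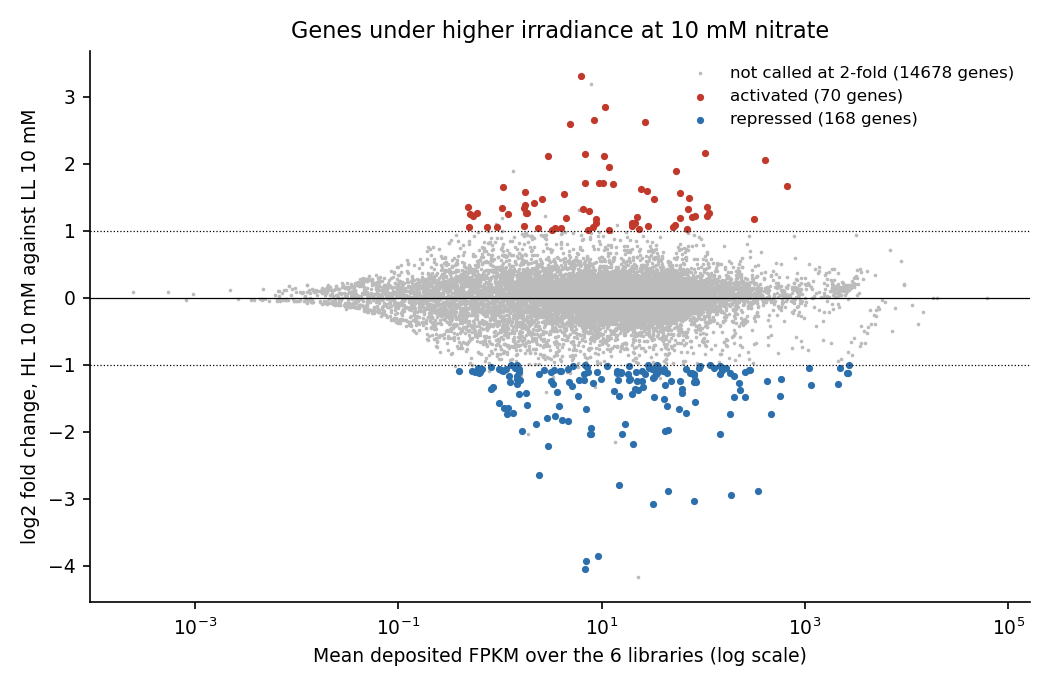
Log2 fold change of HL 10 mM against LL 10 mM (y axis) for each gene against its mean deposited FPKM over the 6 libraries (x axis, log scale), with activated and repressed genes coloured and genes at 0 in all 6 libraries not drawn. The largest falls reach further from 0 than the largest rises, while the median fold is 2.33 for the 168 repressed and 2.43 for the 70 activated genes. Above 1000 FPKM all 7 called genes lie below 0.

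The activated genes were of low level in LL 10 mM. Their median deposited FPKM was 3.79, 3.31 and 4.04 in the LL 10 mM replicates 1 to 3 and 14.9, 12.8 and 14.3 in those of HL 10 mM. Together they held 0.129%, 0.114% and 0.111% of the summed FPKM in LL 10 mM and 0.446%, 0.394% and 0.411% in HL 10 mM. The repressed genes had the higher median in LL 10 mM and the lower in HL 10 mM. Their median was 26.0, 28.1 and 25.5 FPKM in LL 10 mM and 6.42, 9.23 and 10.2 FPKM in HL 10 mM, and their share of the summed FPKM was 2.82%, 3.02% and 2.97% against 1.14%, 1.43% and 1.34%. Both sets of genes were chosen by their direction in these libraries, so these levels only describe them.

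Repression was most frequent among abundant genes. Of the 176 genes with a mean of 1000 FPKM or more, 7 were repressed (3.98%) and 0 were activated, while 27 were higher and 29 lower by the adjusted p without the fold. From 100 to 1000 FPKM, 24 of 1080 genes were repressed (2.22%) and 7 activated (0.648%). From 10 to 100 FPKM, where 7260 genes lay, the shares were 0.882% and 0.358%. From 1 to 10 FPKM 61 of 3958 genes were repressed (1.54%) and 30 activated (0.758%), and under 1 FPKM, where the pseudocount limits the fold change, 12 of 2442 were repressed and 7 activated. The median log2 difference of the most abundant class was 0.12 after quantile normalization. That step gives every library the same distribution of values, so a fall of this class as a whole could be hidden.

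The most abundant transcripts took a smaller share of the transcriptome in high light. The 100 genes with the highest deposited FPKM of each library held 44.0%, 46.7% and 46.2% of the summed FPKM in LL 10 mM and 38.5%, 40.2% and 37.5% in HL 10 mM. The means were 45.6% ± 1.42 and 38.7% ± 1.36 (SD, n = 3), and the 3 HL 10 mM libraries all lay below the 3 LL 10 mM libraries. The exact two-sided permutation p was 0.1, the smallest that 3 against 3 libraries can give. The single most abundant gene held 5.57% to 5.85% in LL 10 mM and 5.28% to 5.85% in HL 10 mM, with overlapping groups.

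A few genes were listed at 0 in one group only. At 0 in all LL 10 mM libraries and above 0 in all HL 10 mM libraries were 5 genes, with a highest mean of 0.963 FPKM, of which 1 was called. The opposite pattern held for 19 genes, with a highest mean of 13.7 FPKM, of which 2 were called. The data used here do not give the products of genes outside the carotenogenic list, so only the largest changes are named by their IDs.

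Among the called genes without overlap, Cz01g41040 and Cz17g16050 rose most. Cz01g41040 was low in LL 10 mM, with 0.428, 0.514 and 0.814 normalized FPKM, and reached 14.0, 15.5 and 14.6 in HL 10 mM. It was 9.94-fold higher (log2 fold change 3.31 ± 0.12 SE, limma adjusted p = 2.71e-07). In the deposited values it rose from 0.255, 0.299 and 0.654 to 11.3, 12.3 and 13.3 FPKM, so the pseudocount holds the fold change down. Cz17g16050 was at 2.12, 2.45 and 2.22 normalized FPKM in LL 10 mM and at 24.7, 20.7 and 22.2 in HL 10 mM, 7.2-fold higher (log2 fold change 2.85 ± 0.13 SE, limma adjusted p = 1.83e-06). In both genes the lowest HL 10 mM library was far above the highest LL 10 mM library.

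At 1 mM nitrate Cz17g16050 passed and Cz01g41040 did not. Cz17g16050 rose there as well, from 14.8, 14.4 and 14.0 to 194, 189 and 129.7 normalized FPKM (log2 fold change 3.46, limma adjusted p = 1.61e-07). Cz01g41040 had 2.42, 2.08 and 2.03 normalized FPKM in LL 1 mM and 3.02, 3.79 and 2.47 in HL 1 mM, a log2 fold change of 0.36 (95% interval 0.09 to 0.63) that did not pass (limma adjusted p = 0.125), but did without normalization (log2 0.58, limma adjusted p = 0.0198). The difference of its light effects, 10 mM minus 1 mM, was 2.96 on the log2 scale (limma adjusted p = 1.08e-05), though the gene was named for its large change at 10 mM, which favours such a difference. For Cz17g16050 this difference was −0.61 and did not pass (limma adjusted p = 0.0859), with an interval of −1.03 to −0.19, and without HL 1 mM replicate 3 it passed at 0.0086.

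The largest falls were those of Cz16g02180 and Cz05g13170. Cz16g02180 had 21.2, 10.7 and 9.18 deposited FPKM in LL 10 mM and was listed at 0 in all HL 10 mM libraries, so no fold is given (limma adjusted p = 7.07e-06). Cz05g13170 had 8.44, 20.0 and 13.8 deposited FPKM in LL 10 mM, and in HL 10 mM it was at 0.192 FPKM in replicate 2 and at 0 in the others (limma adjusted p = 0.000195). In LL 10 mM, replicate 1 was the highest library for Cz16g02180 and the lowest for Cz05g13170. In LL 1 mM, Cz16g02180 was at 56.6, 42.2 and 34.6 normalized FPKM against 6.78, 5.74 and 7.16 in HL 1 mM, a log2 fold change of −2.56 (limma adjusted p = 0.000103). Cz05g13170 was low at 1 mM nitrate in both light conditions, with group means of 1.08 and 0.456 normalized FPKM, and its light effect did not pass there (log2 −0.56, 95% interval −1.45 to 0.34, limma adjusted p = 0.475).

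The gene of the next ID after Cz16g02180, Cz16g02190, was repressed too. This gene was chosen after its values were seen. It fell from 212, 122 and 105 deposited FPKM in LL 10 mM to 17.1, 17.9 and 12.5 in HL 10 mM, and from 234, 136 and 119 to 20.0, 21.2 and 14.0 after normalization, 8.21-fold lower (log2 −3.04 ± 0.30 SE, limma adjusted p = 0.00015). As in Cz16g02180, LL 10 mM replicate 1 was the highest library. At 1 mM nitrate Cz16g02190 fell from 759, 422 and 402 to 118, 83.0 and 119 normalized FPKM (log2 −2.25, limma adjusted p = 0.0021).

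**Figure D2:**
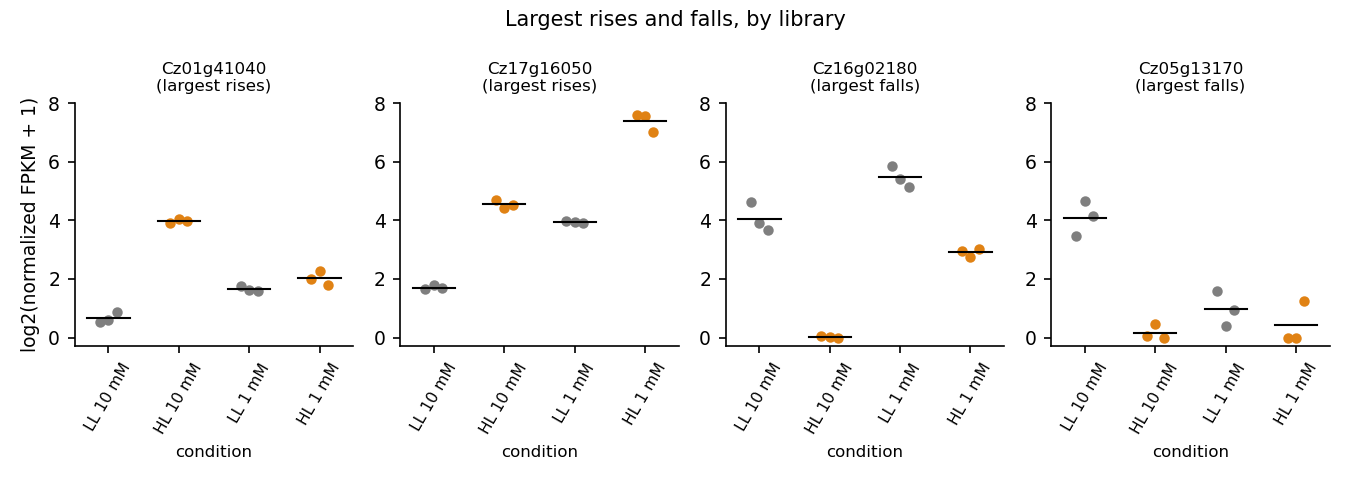
Log2(normalized FPKM + 1) in each library (points, with the group mean as a line, y axis) of the 4 conditions (x axis) for the genes with the largest rises and falls by the naming rule. Cz01g41040 rises at 10 mM, from 0.428 to 0.814 up to 14.0 to 15.5 normalized FPKM, and Cz16g02180 and Cz05g13170 lie at or near 0 in every HL 10 mM library.

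Called genes had neighbours in the gene IDs, which are numbered by prefix and position, more often than genes at large. Of the 67 activated genes with an ID of this form, 14 (20.9%) had an adjacent ID that was also activated, while 0.891% of all genes had an activated neighbour. Of 158 repressed genes, 27 (17.1%) had a repressed neighbour, against 2.18% of all genes. The activated neighbours formed 6 runs and the repressed neighbours 12, and the longest run held 3 IDs in either direction. By prefix, the share of repressed genes ran from 0.545% (6 of 1101 genes, Cz02) to 2.3% (14 of 610 genes, Cz16). The share of activated genes ran from 0% (0 of 983 genes, Cz05) to 1.37% (9 of 655 genes, Cz14). Adjacent gene models can be parts of one transcript or near-identical copies among which reads are divided, and the part of either in these counts was not tested.

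The list of carotenogenic genes holds 25 IDs, which carry enzyme names, and most of the changes in it were under 2-fold. At the adjusted p, 7 were higher, 5 were lower and 13 did not pass, so 48% passed beside 11.5% of all genes. From 10 to 100 FPKM 5.77% of all genes were higher and 5.29% lower, and from 100 to 1000 FPKM 10.9% and 9.26%. The 7 higher genes became 12 without normalization, 9 with scaling to the same median and 5 with the 6 libraries of the comparison only. The study chose this list and published tests of it on the same samples, so the count is not independent evidence. At 2-fold, 1 was activated (CRTISO2) and 1 repressed (the NSY gene Cz01g02290). The median log2 fold change was 0.12 in the list and 0.02 in all genes. Of the 10 genes upstream of lycopene, 5 were higher and 0 lower. Of the 4 cyclase genes, 0 were higher and 1 lower, and of the 4 hydroxylase genes 2 were higher and 1 lower. Neither of the 2 ketolase genes passed, and of the 5 genes of the xanthophyll cycle and neoxanthin synthesis 0 were higher and 3 lower.

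**Figure D3:**
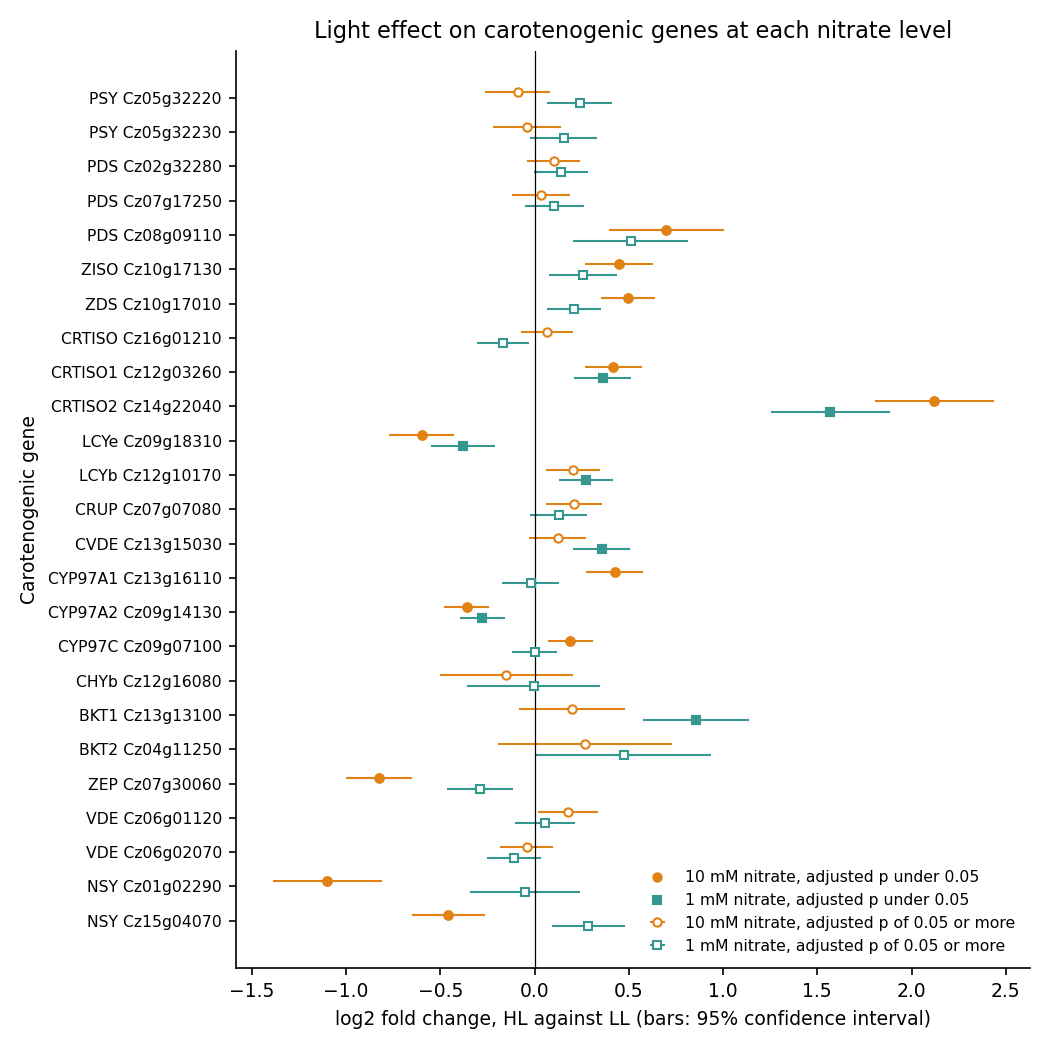
Log2 fold change of HL against LL (x axis, bars 95% confidence intervals) for the 25 carotenogenic genes in pathway order (y axis), at 10 mM nitrate and at 1 mM nitrate, with filled symbols where the limma adjusted p was under 0.05. At 10 mM the 7 filled symbols right of 0 are upstream of lycopene or hydroxylases, and the 5 left of 0 include ZEP and both NSY genes.

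Phytoene synthase (PSY) catalyses the committed step of the pathway, and neither of its genes passed. Cz05g32220 had 95.3, 92.7 and 77.9 normalized FPKM in LL 10 mM and 83.2, 84.7 and 80.7 in HL 10 mM, with overlapping groups. Its log2 fold change was −0.09 (95% interval −0.26 to 0.08). Cz05g32230, the gene of the adjacent ID, had means of 125 ± 8.50 and 121 ± 7.58 normalized FPKM (SD, n = 3) with log2 −0.04 (interval −0.22 to 0.14). The sign of both depended on the scaling, and it became positive without normalization (0.10 and 0.14) and with scaling to the same median (0.03 and 0.07).

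The desaturases introduce the double bonds of lycopene, and they did not move together. Of 3 phytoene desaturase (PDS) genes, Cz08g09110 rose, from 12.6, 16.1 and 17.5 normalized FPKM in LL 10 mM to 23.9, 26.7 and 25.7 in HL 10 mM. This was a 1.62-fold rise (log2 0.70 ± 0.14 SE, limma adjusted p = 0.00899). The PDS gene of the highest level, Cz02g32280, had 154 ± 6.25 and 165 ± 6.94 normalized FPKM (SD, n = 3) with log2 0.10 (interval −0.04 to 0.24), which passed only without normalization (log2 0.26, limma adjusted p = 0.022). The lowest, Cz07g17250, had 12.3 ± 0.553 and 12.7 ± 0.811 (log2 0.03, interval −0.12 to 0.19). The gene of ζ-carotene desaturase (ZDS), which acts after PDS, rose from 111, 122 and 119.8 to 169.9, 167 and 163 normalized FPKM, 1.41-fold (log2 0.50 ± 0.06 SE, limma adjusted p = 0.000831). In ZDS the spread within either group was small beside the distance between them.

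The isomerases bring the desaturated intermediates into the form that the next enzymes use. ZISO, the ζ-carotene isomerase, rose from 65.9, 73.5 and 65.9 normalized FPKM to 84.8, 104 and 92.7, which was 1.37-fold (limma adjusted p = 0.00563). In a fit with only the 6 libraries of the comparison this call was lost (log2 0.47, limma adjusted p = 0.0546). The 3 genes of the carotenoid isomerase family differed in size of change. CRTISO2 rose most of all 25 genes, from 4.38, 4.54 and 3.04 to 22.9, 17.9 and 21.0 normalized FPKM, 4.35-fold (log2 2.12 ± 0.14 SE, limma adjusted p = 1.8e-05). CRTISO1 rose from 28.0, 27.9 and 30.2 to 41.8, 38.3 and 36.0, 1.34-fold (limma adjusted p = 0.00304). CRTISO had 49.8 ± 2.20 and 52.2 ± 0.767 normalized FPKM (SD, n = 3), with a log2 fold change of 0.07 (interval −0.07 to 0.20, passing only without normalization at log2 0.20, limma adjusted p = 0.0421). In LL 10 mM CRTISO2 was thus the gene of the lowest level in this family, and in HL 10 mM it was still below both others.

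Lycopene cyclases set the split between the branches. Lycopene ε-cyclase (LCYe), which opens the α-branch to lutein, fell from 123, 134 and 133 normalized FPKM in LL 10 mM to 81.5, 91.3 and 83.7 in HL 10 mM. It was 1.52-fold lower (log2 −0.60 ± 0.08 SE, limma adjusted p = 0.000794). Lycopene β-cyclase (LCYb), which acts in both branches, had 98.1, 94.0 and 90.1 in LL 10 mM and 108, 109 and 108 in HL 10 mM. The groups of LCYb did not overlap, but the log2 difference of 0.20 (interval 0.06 to 0.35) did not pass (limma adjusted p = 0.0707). It passed without normalization (log2 0.40, adjusted p = 0.00201), with median scaling (0.33, adjusted p = 0.0083), with a trended prior (0.20, adjusted p = 0.0417) and with the replicate number as a block at 1 mM only (0.20, adjusted p = 0.0465). LCYe had the higher mean level of the pair in LL 10 mM (130.0 ± 6.47 against 94.0 ± 4.00) and LCYb in HL 10 mM (108 ± 0.601 against 85.5 ± 5.12 normalized FPKM). CRUP, a paralog of the cyclases, had 20.4 ± 0.701 and 23.7 ± 1.12 normalized FPKM (SD, n = 3), without overlap (log2 0.21, interval 0.06 to 0.36, limma adjusted p = 0.072), and passed without normalization and with median scaling. CVDE, which the study groups with these genes and which shares its name with a violaxanthin de-epoxidase of *Chlamydomonas*, had 8.21 ± 0.719 and 9.01 ± 0.0642, with a log2 fold change of 0.12 (interval −0.03 to 0.27).

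The hydroxylases turn carotenes into lutein and zeaxanthin. The cytochrome P450 gene CYP97A1 rose from 61.1, 56.1 and 55.5 normalized FPKM to 76.8, 78.1 and 77.7, 1.34-fold (log2 0.42 ± 0.07 SE, limma adjusted p = 0.00278). Its relative CYP97A2 moved the other way, from 119.9, 128 and 125 to 93.6, 99.2 and 96.3, 1.28-fold lower (log2 −0.36 ± 0.05 SE, limma adjusted p = 0.00187). CYP97A2 remained the more abundant of the pair in each of the 6 libraries. CYP97C, which hydroxylates the ε-ring of lutein in plants, was at 94.6, 94.3 and 96.0 in LL 10 mM and at 111, 109 and 105 in HL 10 mM, a 1.14-fold rise that passed narrowly (limma adjusted p = 0.047). This call was lost in 11 of the 12 fits without 1 library (adjusted p of 0.0518 to 0.132) and stood only without LL 1 mM replicate 3 (0.0427). It was also lost with the filter on low values (0.0504), with the replicate number as a block at 1 mM only (0.0507) and with the 6 libraries of the comparison only (0.0574). The β-ring hydroxylase CHYb was at 83.2, 59.97 and 65.8 in LL 10 mM and at 65.5, 55.5 and 65.8 in HL 10 mM, with overlapping groups, a log2 fold change of −0.15 and an interval of −0.50 to 0.20. The sign of CHYb was positive without normalization (0.01).

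The β-carotene ketolases act on β-carotene to give canthaxanthin, and on zeaxanthin to give adonixanthin and then astaxanthin. BKT1 was at 30.9, 28.2 and 24.4 normalized FPKM in LL 10 mM and at 30.1, 29.2 and 37.1 in HL 10 mM, and the groups overlapped. Its log2 fold change was 0.20 (interval −0.08 to 0.48, limma adjusted p = 0.361). BKT2 was lower in level, at 4.25, 6.41 and 3.44 against 4.54, 7.55 and 5.35 (log2 0.27, interval −0.20 to 0.73, limma adjusted p = 0.464). The interval of BKT2 was the widest of the 25 genes, and its groups overlapped. At 1 mM nitrate BKT1 rose from 34.0 ± 1.14 to 62.9 ± 9.46 normalized FPKM (SD, n = 3) with log2 0.86 (limma adjusted p = 0.0039). The difference between its light effects, −0.66 (interval −1.06 to −0.26), did not pass (limma adjusted p = 0.0586), although it did with a trended prior (limma adjusted p = 0.0441), without HL 10 mM replicate 3 (0.0371) and without HL 1 mM replicate 3 (0.0377).

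The xanthophyll cycle genes fell or did not pass. Zeaxanthin epoxidase (ZEP), which converts zeaxanthin to violaxanthin, fell from 115, 111 and 109 normalized FPKM in LL 10 mM to 57.8, 60.9 and 69.4 in HL 10 mM. It was 1.77-fold lower (log2 −0.83 ± 0.08 SE, limma adjusted p = 0.000123). Of the violaxanthin de-epoxidase (VDE) genes, which encode the reverse step, Cz06g01120 was at 23.7, 24.3 and 25.1 against 27.8, 27.0 and 28.3, without overlap, but did not pass (log2 0.18, interval 0.02 to 0.34, limma adjusted p = 0.144). It passed only without normalization (log2 0.27, adjusted p = 0.0308). The other VDE gene, Cz06g02070, had 114 ± 2.48 and 110.3 ± 5.50 normalized FPKM (SD, n = 3) with log2 −0.04 (interval −0.18 to 0.10) that was positive without normalization (0.12) and with median scaling (0.06).

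Neoxanthin synthase (NSY) acts on violaxanthin, and both of its genes fell. Cz01g02290 fell from 31.8, 43.8 and 42.7 normalized FPKM to 15.1, 20.3 and 18.0, 2.14-fold lower (log2 −1.10 ± 0.13 SE, limma adjusted p = 0.000505). Replicate 1 was the lowest library of either group. Cz15g04070 fell from 16.2, 17.8 and 15.1 to 10.9, 11.7 and 12.3, 1.37-fold lower (log2 −0.46 ± 0.09 SE, limma adjusted p = 0.00751). The higher of these genes in LL 10 mM thus fell by more, and in HL 10 mM its lowest library was above all 3 libraries of the other.

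**Figure D4:**
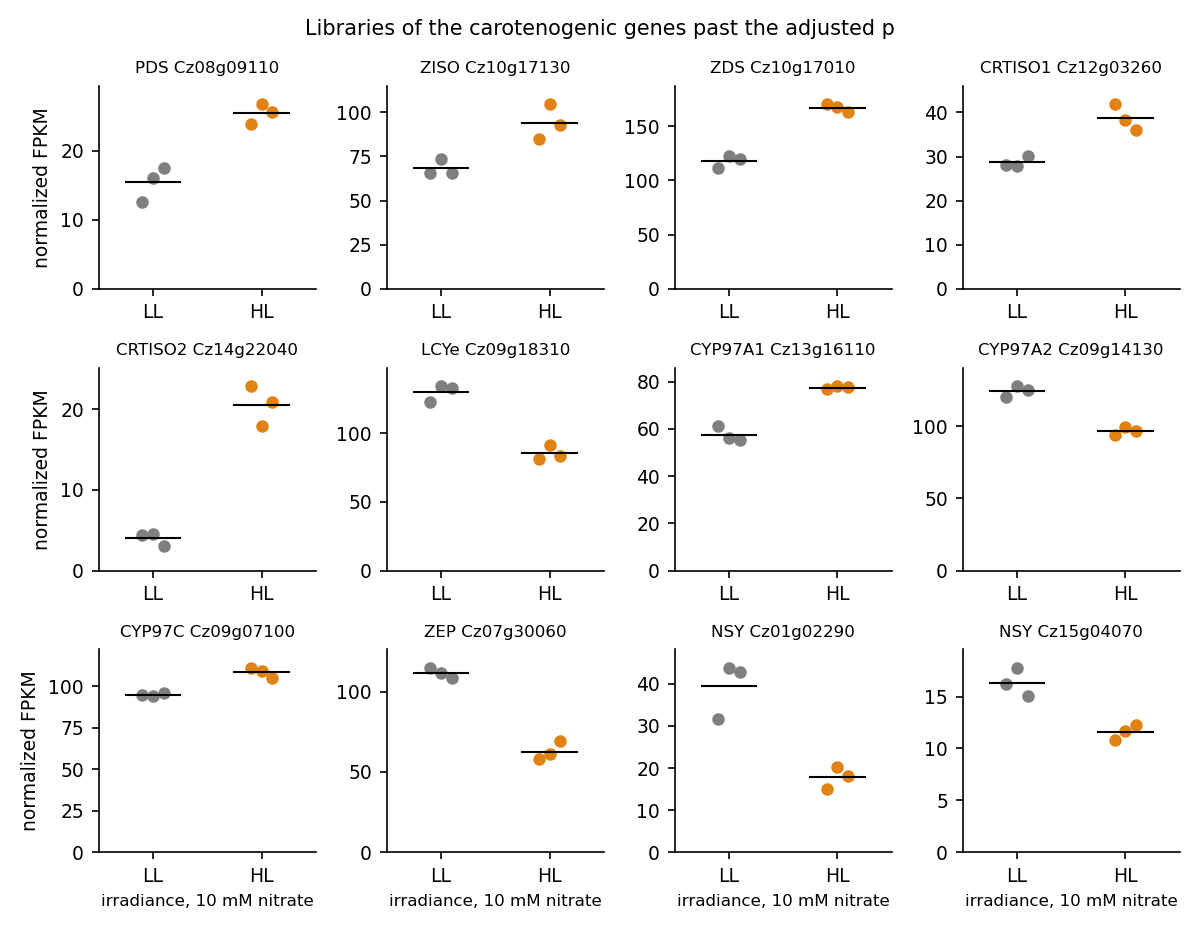
Normalized FPKM in each LL 10 mM and HL 10 mM library (points, with the group mean as a line, y axis from 0) for the 12 carotenogenic genes that passed the limma adjusted p. In every panel the 3 HL libraries lie on one side of the 3 LL libraries, which the choice of genes by their adjusted p favours. Over all genes tested, 17.3% lay above and 13.2% below in every library. The largest relative distance is that of CRTISO2.

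The contrast of light at 1 mM nitrate has its own 6 libraries, although normalization and the spread were shared with the contrast at 10 mM. Fewer genes were called there, with 41 higher (0.275%) and 60 lower (0.402%) at 2-fold and 421 (2.82%) and 360 (2.41%) at the adjusted p alone. Over all genes, 95% of the log2 fold changes lay between −0.45 and 0.51 at 1 mM. Of the 70 genes activated at 10 mM, 49 (70%) had a positive log2 fold change at 1 mM, as did 48.6% of all genes. At the adjusted p, 32 (45.7%) were higher and 0 lower, and 22 reached 2-fold, which is 31.4% of the 70 and 53.7% of the 41. Of the 168 repressed genes, 109 (64.9%) had a negative log2 fold change, as did 51% of all genes. At the adjusted p, 50 (29.8%) were lower and 1 higher, and 19 reached 2-fold, 11.3% of the 168 and 31.7% of the 60. The median log2 fold change at 1 mM was 0.39 for the activated genes (quartiles −0.07 and 1.31) and −0.22 for the repressed genes (quartiles −0.64 and 0.23). With each nitrate level normalized and fitted on its own 6 libraries, 66 genes were activated and 139 repressed at 10 mM, of which 49 (74.2%) and 104 (74.8%) had the same sign at 1 mM, and 31 and 36 passed in the same direction.

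The difference between the light effects was tested gene by gene as the interaction of light and nitrate, which 817 genes passed (5.48%). Among the activated genes 35 (50%) passed, and in 34 of these the change was larger at 10 mM. Among the repressed genes 93 (55.4%) passed, 89 of them with the larger change at 10 mM. Choosing genes for a large change at 10 mM favours differences of this sign, so these counts are a description. The 10 genes activated by 4-fold or more mostly rose at 1 mM as well, 8 at the adjusted p, and 3 passed the interaction. Of the 16 genes repressed by 4-fold or more, 11 had a negative log2 fold change at 1 mM. At the adjusted p, 4 of the 16 were lower there, and 14 passed the interaction. With the replicate number as a block 1582 genes passed, with that block at 1 mM only 1136, and with median scaling 1230, with 141 of the 205 genes then repressed. The interaction counts depend on single libraries, as the 817 became 205 without LL 1 mM replicate 2 and 1414 without LL 1 mM replicate 3, and the libraries differ in composition between the nitrate levels, with a median of 17.8 to 20.8 FPKM at 1 mM against 12.6 to 14.7 at 10 mM. With the genes called in each fit, among the activated genes the 35 became 15 without LL 1 mM replicate 2, 20 without LL 1 mM replicate 1 and 22 without HL 1 mM replicate 2. Among the repressed genes the 93 became 43 without LL 1 mM replicate 2, 59 without HL 10 mM replicate 1, 60 without HL 1 mM replicate 2 and 61 without LL 10 mM replicate 3, and the 50 lower at 1 mM became 33 without LL 1 mM replicate 1.

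**Figure D5:**
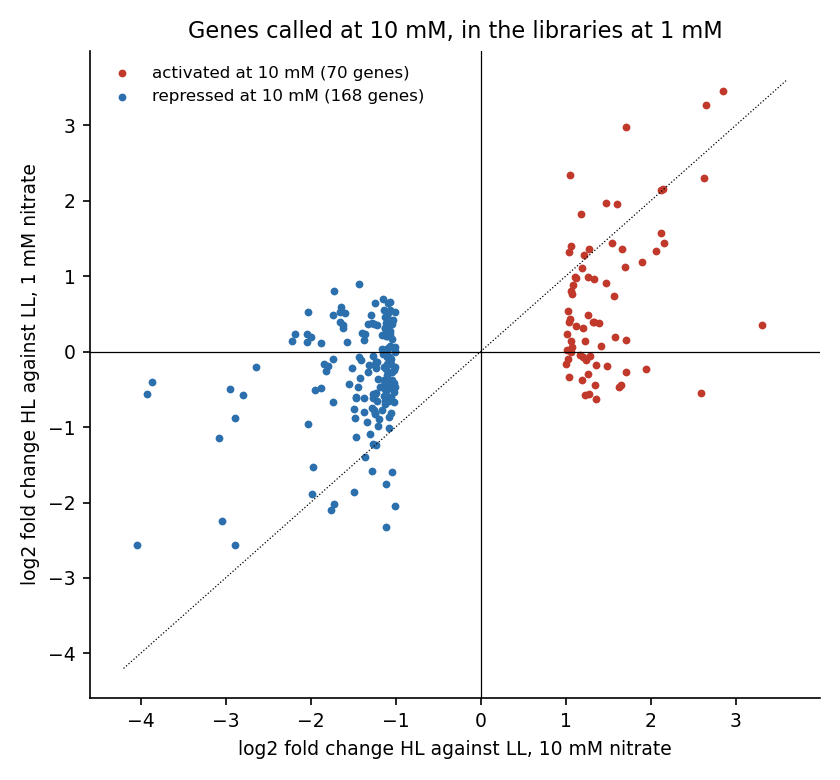
Log2 fold change of HL against LL at 1 mM nitrate (y axis) against that at 10 mM nitrate (x axis) for the 70 activated and 168 repressed genes of the comparison at 10 mM, each a point, with a dotted line where both changes are equal. The activated genes have a median of 0.39 and the repressed genes a median of −0.22 on the y axis, nearer to 0 than on the x axis.

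In the carotenogenic list, 5 genes were higher and 2 lower at 1 mM at the adjusted p, beside 2.82% and 2.41% of all genes, and 4 of 25 (16%) passed the interaction, beside 5.48%. CRTISO2 rose at both nitrate levels, and at 1 mM from 15.4 ± 1.17 to 47.9 ± 6.55 normalized FPKM (SD, n = 3) with log2 1.57 (limma adjusted p = 0.000107). Its level in HL 10 mM, 20.6 ± 2.49, lay between those of LL 1 mM and HL 1 mM. The difference of its light effects was 0.55 (interval 0.11 to 1.00, limma adjusted p = 0.13), and it passed without normalization (0.75, limma adjusted p = 0.0429) and with median scaling (0.88, limma adjusted p = 0.0261). CRTISO1, LCYe and CYP97A2 also passed in the same direction at both levels, with log2 fold changes at 1 mM of 0.36, −0.38 and −0.28, although each lost its call at 1 mM in 3 or 4 of 12 fits without 1 library, LCYe and CYP97A2 also without normalization (limma adjusted p = 0.0551 and 0.061) and CRTISO1 with median scaling (0.0859). BKT1, LCYb and CVDE passed at 1 mM and not at 10 mM, and none of their interactions passed. At 1 mM LCYb had a log2 fold change of 0.27 (limma adjusted p = 0.0378), lost in 8 of 12 fits without 1 library, and CVDE of 0.36 (limma adjusted p = 0.0154), lost in 4 of 12. Both calls were also lost with median scaling (limma adjusted p = 0.188 and 0.0743).

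Both NSY genes, ZEP and CYP97A1 passed the interaction. NSY Cz01g02290 fell at 10 mM, while at 1 mM it had 15.1 ± 0.996 normalized FPKM in low light and 14.6 ± 0.9 in high light (SD, n = 3), close to its level in HL 10 mM. The difference of its light effects was −1.05 (interval −1.46 to −0.64, limma adjusted p = 0.0153). NSY Cz15g04070 fell at 10 mM and had 18.5 ± 1.93 and 22.7 ± 1.03 at 1 mM, with a difference of −0.74 (interval −1.02 to −0.47, limma adjusted p = 0.012). ZEP had 65.8 ± 4.48 and 53.7 ± 2.08 at 1 mM and a difference of −0.54 (limma adjusted p = 0.0267). The light effect on ZEP at 1 mM (log2 −0.29, interval −0.46 to −0.11) did not pass (limma adjusted p = 0.0654). It did with median scaling (limma adjusted p = 0.0297), with a trended prior (0.04) and without HL 10 mM replicate 3 (0.0454). CYP97A1 had 63.5 ± 4.85 and 62.4 ± 1.85 at 1 mM and a difference of 0.45 (limma adjusted p = 0.0306). The interaction of CYP97A1 was lost in 8 of 12 fits without 1 library (adjusted p up to 0.0699) and that of ZEP in 7 of 12 (up to 0.0721), while neither NSY gene lost it in any.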

How the data were processed

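Stranded poly(A) RNA libraries of the 4 conditions, 3 per condition, were processed by the authors with FastQC, HISAT2 (mapping) and StringTie (quantification), and the deposited values, 1 column per library, were read as FPKM on a linear scale before any normalization between libraries. The unit is inferred from the values and from StringTie and is not named in the sources used here. FPKM carry no depth, so no counting error is given.

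In R 4.3.3 with limma 3.58.1, log2(FPKM + 1) of the 14916 genes above 0 in any of the 12 libraries was quantile-normalized over all 12. One linear model held the 4 groups, and variances were moderated with limma's defaults (2.63 prior degrees of freedom). The contrasts were light at 10 mM, light at 1 mM and their difference, adjusted by Benjamini-Hochberg over all genes. Single genes were read at an adjusted p of 0.05, and counts of activated and repressed genes also required a 2-fold change. The share of the 100 most abundant genes was compared by an exact permutation test.

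The genes named were the 25 carotenogenic IDs, and the 2 largest rises and 2 largest falls among called genes whose libraries did not overlap. The members and lists were chosen with earlier results of these data known. Other pathways and cell markers were not analysed here, nor were pigments and biomass.

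The alternatives were a pseudocount of 0.1, a filter at a mean of 1 FPKM, no normalization, median scaling of libraries, a prior with trend and robust options, the replicate number as a block, the 6 libraries of the comparison only, the adjusted p alone, and leaving out each library in turn. Same-numbered libraries of LL 10 mM and HL 10 mM deviated together with r of 0.46, 0.20 and −0.06 across genes, so the numbers were not taken to pair them. Differently numbered libraries at 10 mM had r of −0.460 to 0.315. The highest were LL 10 mM replicate 3 with HL 10 mM replicate 2 (0.315) and LL 10 mM replicate 2 with HL 10 mM replicate 3 (0.247). Whether these libraries pair under other numbers was not tested. For same-numbered libraries of LL 1 mM and HL 1 mM r was 0.38, 0.16 and 0.44, which meets the rule used for pairing, as a hint from the data and not from the labels. Differently numbered libraries at 1 mM had r of −0.443 to 0.173. The highest was that of LL 1 mM replicate 1 with HL 1 mM replicate 2, above the 0.161 of the libraries numbered 2, so the pairing is unclear. The printed p-values are from the fit without a block. A block on all 12 libraries and, chosen after seeing the data, a block on the 1 mM libraries only and separate fits of each nitrate level were run as alternatives. The fit of light at 10 mM was tested on simulated data with known changes.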

Additional observations from a re-analysis of the deposited data

Results flagged for a closer look

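In 7 named genes the effect of light differed between 10 mM and 1 mM nitrate by the test of the interaction. Over all 14916 genes tested, 817 passed it (5.48%). Of the 7, 4 belong to the 25 genes of the carotenogenic list. The genes Cz01g41040, Cz05g13170 and Cz16g02180 were named for their large change at 10 mM, which favours a difference of this kind, so their p-values are too small as evidence of one. Each value is the log2 fold change at 10 mM minus that at 1 mM, with its limma adjusted p over all genes. The largest difference was in Cz05g13170, −3.37 (adjusted p = 0.0129), a gene with group means of 1.08 normalized FPKM or less at 1 mM nitrate. Its difference was −4.55 with a pseudocount of 0.1 and then did not pass (adjusted p = 0.111). In Cz01g41040 the difference was 2.96 (adjusted p = 1.08e-05). In Cz16g02180 it was −1.48 (adjusted p = 0.0323), and it was lost in 6 of 12 fits without 1 library, at 0.0564 to 0.0858, and with the filter on low values (−1.03, limma adjusted p = 0.0793).

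Among the carotenogenic genes the difference was −1.05 in NSY Cz01g02290 (adjusted p = 0.0153) and −0.743 in NSY Cz15g04070 (adjusted p = 0.012). In ZEP it was −0.539 (adjusted p = 0.0267), lost in 7 of 12 fits without 1 library, and in CYP97A1 it was 0.445 (adjusted p = 0.0306), lost in 8 of 12.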

How the results depend on the processing

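No gene called for light at 10 mM was called in the opposite direction under an alternative fit, but calls were lost. With the 6 libraries of the comparison only, 59 of the 70 activated and 123 of the 168 repressed genes kept their call. In all 12 fits without 1 library, 53 of the 70 and 100 of the 168 were called. The sign of genes that lost their call was not counted. Leaving out 1 library gave 69 to 85 activated and 132 to 197 repressed genes, 7 or 6 carotenogenic genes higher and 5 lower, 30 to 57 and 49 to 68 genes called at 1 mM, 205 to 1414 interactions, 29 to 33 activated genes higher and 33 to 51 repressed genes lower at 1 mM, and 15 to 46 and 43 to 117 of them with an interaction. The pseudocount of 0.1 gave 138 and 259 called genes, and the adjusted p alone 866 and 846 at 10 mM and 421 and 360 at 1 mM. Without normalization 12 carotenogenic genes were higher. Median scaling gave 1230 interactions, 141 of them among the 205 genes then repressed. The replicate block gave 1582 interactions, 72 and 172 called genes at 10 mM and 42 and 65 at 1 mM, and it changed no call of a named gene in the light effects, while the interaction of PSY Cz05g32220 passed with it (−0.33, limma adjusted p = 0.0489). The block on the 1 mM libraries only, where the numbers met the rule for pairing, gave 73 and 167 called genes at 10 mM, 42 and 62 at 1 mM and 1136 interactions. Among named genes it ended the call of CYP97C and gave one to LCYb at 10 mM. Not counting genes with a lone 0 in 1 library, an alternative chosen after seeing the data, left 70 and 168. The cause of these shifts was not tested.

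Signs turned in values that did not pass. Without normalization these were, for light at 10 mM, PSY Cz05g32220 (0.0961), PSY Cz05g32230 (0.138), CHYb (0.00637) and VDE Cz06g02070 (0.123), for light at 1 mM CYP97A1 (0.0532), CHYb (0.0591) and NSY Cz01g02290 (0.107), and for the interaction PDS Cz02g32280 (0.0674), LCYb (0.0795) and CYP97A2 (0.00149). With median scaling they were, for light at 10 mM, PSY Cz05g32220 (0.0314), PSY Cz05g32230 (0.0735) and VDE Cz06g02070 (0.0581), for light at 1 mM CYP97C (−0.0743), and for the interaction PSY Cz05g32230 (0.0103), PDS Cz02g32280 (0.143), LCYb (0.156), CYP97A2 (0.0751) and CHYb (0.0222). Leaving out 1 library gave ranges across 0 for light at 10 mM in PSY Cz05g32230 (−0.0763 to 0.0134) and PDS Cz07g17250 (−0.0113 to 0.0724), for light at 1 mM in CYP97A1 (−0.0610 to 0.0392), CHYb (−0.118 to 0.170) and CYP97C (−0.0284 to 0.0187), and for the interaction in CRTISO1 (−0.000476 to 0.105) and PDS Cz02g32280 (−0.0711 to 0.00573). Of 1740 values of named genes under alternatives, 1615 kept direction and call, 65 lost and 30 gained a call, and 30 turned sign.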
